A study of Mus musculus with 11 samples.

Results

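The 49 genes described here encode proteins of the cell cycle and of DNA replication, and their RNA was used as a measure of proliferation of tumor cDC1s, the conventional type 1 dendritic cells that infiltrate a tumor. The genes were taken by name from a list of S phase and mitosis genes. All 49 were present in the deposited normalized table of 11118 genes and all 49 passed the expression filter, which left 10951 of the 24421 genes of the count table. They were divided by role into 21 replication and G1/S genes and 28 mitosis genes.

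The cDC1s had been sorted from subcutaneous tumors of B16-F10, a mouse melanoma line given as B16 in the labels, and measured by bulk RNA-seq in 11 pools, each from 2 to 4 C57BL/6 mice of 6 to 14 weeks of age and holding 5000 to 20000 cells. The 4 control pools carried no Cre. Control replicates 1 to 3 were XBP1 fl/fl and control replicate 4 was XBP1 fl/fl, IRE1 fl/fl, so every pool in the study carried the floxed *Xbp1* allele. The 4 XBP1ΔDC pools (XBP1 fl/fl, CD11c-CRE) lack functional XBP1, the transcription factor whose RNA is spliced by the stress sensor IRE1. In the 3 XBP1ΔDCIRE1truncDC pools (CD11c-CRE with XBP1 fl/fl and IRE1 fl/fl) the RNase part of IRE1 is lost as well. CD11c-Cre acts in all cells that express CD11c, among them other dendritic cells and some macrophages of the same mice. In what follows, a level is in CPM, the count relative to the library size after TMM scaling, and pool values are listed in replicate order.

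A dividing cell copies its DNA in S phase and separates the copies in mitosis. Before S phase, CDC6 and CDT1 load the MCM helicase on replication origins, and the cyclin E and CDK2 kinase together with E2F transcription factors starts replication. In mitosis, cyclin B with CDK1, the Aurora and Polo-like kinases, kinesins of the spindle and the checkpoint proteins of the kinetochore act in turn, until the anaphase-promoting complex with CDC20 ends the phase. Dendritic cells of the tissues arise from dividing precursors, and differentiated cDC1s keep some capacity to divide.

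Genes of each phase are known to share promoter elements. E2F factors bind an element found in many S phase genes, and the MuvB-type complexes that time mitotic genes use the cell cycle homology region (CHR), often near CCAAT boxes bound by NF-Y. Promoter windows were searched because the members moved together from pool to pool, as described further on. Whether the elements have a part in that movement was not tested. RefSeq windows (GRCm38.p6, 250 bases before to 50 after a start) were matched by symbol for 41 of the 49 members. The letters searched on both strands were TTTCCCGC, TTTCGCGC, TTTGCCGC and TTTGGCGC for E2F, TTTGAA for the CHR and CCAAT for the CCAAT box. An E2F element lay in 8 of 18 replication and G1/S members with a window (44.4%) and in 1 of 23 mitosis members (4.35%), beside 2.6% of all 27025 genes with a window. A CHR lay in 17 of the 23 mitosis members (73.9%), in 3 of the 18 replication and G1/S members (16.7%) and in 20.2% of all genes. CCAAT boxes were found in 21 of 23 mitosis members (91.3%), 11 of 18 replication and G1/S members (61.1%) and 41.1% of all genes. *Cdk1* was the only member whose window held both an E2F element and a CHR. The short CHR and CCAAT letters occur in many promoters, and a match is a description of the sequence, not a bound site. The windows of 7 members are shown as examples of both promoter types, *Mcm5* and *Mcm6* for replication, *Cdk1* with both elements, *Top2a*, *Cdc20* and *Kif11* for mitosis, and *Mki67* because its level departed from the others. Each is the 160 bases before the RefSeq start, 5′ to 3′ on the strand of the gene, with E2F, CHR and CCAAT matches of either strand in capitals and overlapping matches merged.
Mcm5: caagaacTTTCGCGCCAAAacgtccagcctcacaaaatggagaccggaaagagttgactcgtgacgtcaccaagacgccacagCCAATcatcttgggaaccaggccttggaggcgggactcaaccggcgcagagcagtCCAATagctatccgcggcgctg
Mcm6: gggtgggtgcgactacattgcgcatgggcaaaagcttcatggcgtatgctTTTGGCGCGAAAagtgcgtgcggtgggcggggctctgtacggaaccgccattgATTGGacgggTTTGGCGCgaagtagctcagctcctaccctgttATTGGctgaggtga
Cdk1: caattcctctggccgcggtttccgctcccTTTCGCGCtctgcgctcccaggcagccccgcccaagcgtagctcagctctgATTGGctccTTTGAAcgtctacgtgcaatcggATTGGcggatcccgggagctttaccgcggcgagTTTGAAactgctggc
Top2a: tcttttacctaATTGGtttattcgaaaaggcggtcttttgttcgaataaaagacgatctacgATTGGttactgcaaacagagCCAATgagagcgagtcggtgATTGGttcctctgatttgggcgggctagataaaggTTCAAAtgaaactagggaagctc
Cdc20: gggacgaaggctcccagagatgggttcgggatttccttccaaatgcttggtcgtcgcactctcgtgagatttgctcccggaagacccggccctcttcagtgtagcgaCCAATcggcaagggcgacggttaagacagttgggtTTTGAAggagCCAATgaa
Kif11: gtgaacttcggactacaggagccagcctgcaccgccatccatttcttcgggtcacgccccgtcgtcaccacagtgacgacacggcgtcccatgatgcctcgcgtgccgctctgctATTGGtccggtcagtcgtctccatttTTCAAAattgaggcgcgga
Mki67: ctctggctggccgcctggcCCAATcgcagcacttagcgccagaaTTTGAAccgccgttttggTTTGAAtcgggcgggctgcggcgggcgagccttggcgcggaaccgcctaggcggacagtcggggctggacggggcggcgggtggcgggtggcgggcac
These windows lie at chr8:75109349-75109508 (plus strand), chr1:128359706-128359865 (minus), chr10:69352913-69353072 (minus), chr11:99024190-99024349 (minus), chr4:118437344-118437503 (minus), chr19:37376222-37376381 (plus) and chr7:135716380-135716539 (minus) of GRCm38. In *Mcm5* a pair of overlapping E2F matches on opposite strands starts 153 bases before the start, and in *Cdc20* and *Kif11* the CHR match nearest to the start lies 18 and 19 bases before it. In *Mki67* both CHR matches lie farther away, at 116 and 98 bases.

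Depth was alike in the 3 genotypes, at 21089065 to 26843486 counts per pool, of which 74935 to 119352 fell on the 49 members. *Xbp1* was at 244 to 271 CPM in control pools, 130.1 to 165 in XBP1ΔDC pools and 179 to 236 in XBP1ΔDCIRE1truncDC pools, and counts per gene include reads of exons that Cre does not remove. Of the defining cDC1 markers, *Xcr1* was at 751 to 989 CPM and *Clec9a* at 123 to 165 CPM over the 11 pools. The sum of 12 cDC1 markers was 14133 to 15442 CPM in control, 12021 to 13405 in XBP1ΔDC and 12815 to 13727 in XBP1ΔDCIRE1truncDC pools, so every mutant pool lay below every control pool. By gene the 12 markers were split, with 8 lower and 4 higher than control in XBP1ΔDC (median log2 fold change -0.07). In XBP1ΔDCIRE1truncDC 7 were lower and 5 higher (median -0.03). Of all single genes, 5.31% and 10.1% had pools that did not overlap the controls in these comparisons. None of the 12 markers was called by edgeR in any comparison. Against control, an unadjusted p under 0.05 was reached by *Itgae* and *Naaa*, both lower in XBP1ΔDC, and in XBP1ΔDCIRE1truncDC by *Cd24a*, *Itgae* and *Naaa*, which were lower, and *Zbtb46*, which was higher. *Naaa* had log2 fold changes of -0.51 and -0.33 with adjusted p of 0.000495 and 0.0396 (edgeR), short of the 1.5-fold limit. The part of these markers in the member levels was not tested. Markers of other cells were low in sum, at 78.7 to 189.9 CPM for 10 macrophage and monocyte genes, 8.997 to 66.0 CPM for 10 melanoma genes, 2.41 to 22.0 CPM for the measured T and NK cell genes and 0.0869 to 2.76 CPM for those of B cells. Melanoma cells divide, and their marker sum was 13.2, 9.63, 57.3 and 62.4 CPM in control pools, 14.8, 13.03, 29.4 and 66.03 in XBP1ΔDC pools and 12.002, 11.7 and 8.997 in XBP1ΔDCIRE1truncDC pools. Control replicates 3 and 4 and XBP1ΔDC replicates 3 and 4 were highest. The T and NK cell sum was 2.41 to 5.38 CPM in control, 3.79 to 8.87 in XBP1ΔDC and 6.43 to 22.0 in XBP1ΔDCIRE1truncDC pools. All XBP1ΔDCIRE1truncDC pools thus lay above every control pool, where 10.1% of all single genes had pools that did not overlap. Of the 11 T and NK cell genes measured, 1 passed the expression filter. The part of melanoma, T or NK cells in the levels of the members was not tested.

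Tumor cDC1s of all 3 genotypes expressed the whole set of cell cycle genes, and no member passed as a differentially expressed gene (DEG) in any comparison. Of all genes tested, 0.493% were called in XBP1ΔDC against control, 0.21% in XBP1ΔDCIRE1truncDC against control and 0.0731% between the mutant genotypes. The 0 calls among 49 members are thus near the shares over all genes. The summed level of the 49 members was 4041 ± 593 CPM (SD, n = 4) in controls, 3992 ± 583 CPM (n = 4) in XBP1ΔDC pools and 4048 ± 760 CPM (n = 3) in XBP1ΔDCIRE1truncDC pools. Pool by pool, the sum was 3209.8, 4419, 4023 and 4511 CPM in controls, 3470.4, 3506, 4542 and 4449.6 in XBP1ΔDC pools and 4114, 4772 and 3257 in XBP1ΔDCIRE1truncDC pools. Each genotype held pools with a low and pools with a high sum, and the 3 groups overlapped throughout. In bulk RNA, fewer dividing cells and less RNA of these genes per dividing cell cannot be told apart.

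**Figure D1:**
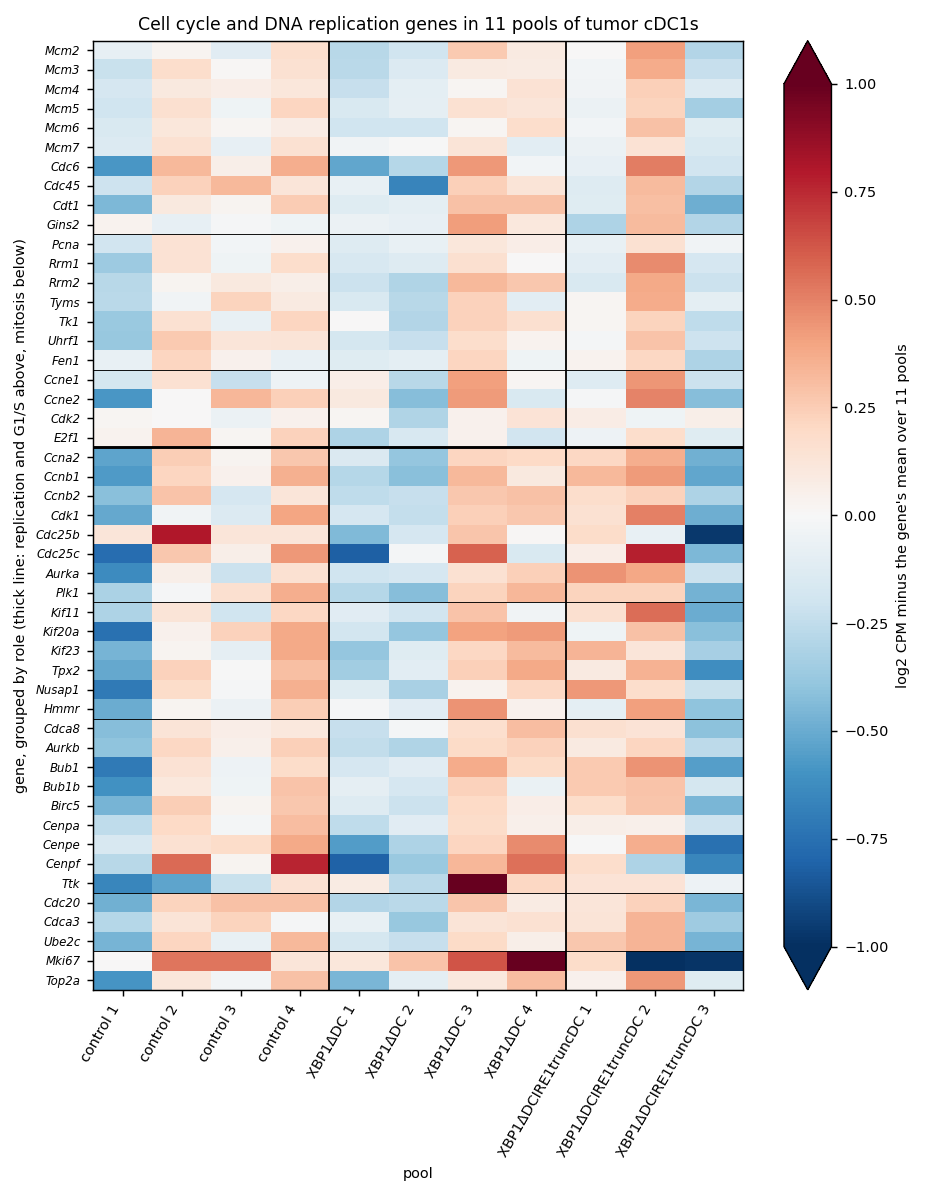
Heat map of the 49 members (rows, grouped by role, replication and G1/S genes above the thick line and mitosis genes below) in the 11 pools (columns, in replicate order within each genotype). Colour is log2 CPM minus the gene's mean over the 11 pools, with values beyond the ends of the scale in the end colours. Columns change colour nearly as a whole within each genotype, and *Mki67* is dark blue in XBP1ΔDCIRE1truncDC replicates 2 and 3 only.

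Replication genes held most of the highest levels per length. In control pools *Rrm2*, a subunit of the enzyme that makes deoxynucleotides, was at 61.6 ± 6.88 CPM per kilobase of exon (SD, n = 4), *Mcm6* of the MCM helicase at 61.1 ± 4.87, *Mcm3* at 54.5 ± 6.71, the flap endonuclease *Fen1* at 54.2 ± 5.35 and the mitotic cyclin *Ccnb2* at 53.8 ± 11.3. These neighbours in the order did not differ beyond their SDs. Length was the union of all annotated exons, for *Pcna* 2400 bases against 1518 in its longest transcript. The order therefore depends on the length used. The lowest levels per length were those of *Ttk*, a spindle checkpoint kinase, at 1.59 ± 0.411, *Cenpf*, a kinetochore protein, at 1.67 ± 0.538, and *Cdc25c*, a phosphatase that activates CDK1, at 1.85 ± 0.587 CPM per kilobase, which also lay within an SD of each other.

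Among the replication genes, *Mcm5*, of the MCM helicase, was at 173, 221, 193 and 229.6 CPM in the control pools, 178, 187, 221 and 216 in the XBP1ΔDC pools and 189.9, 231 and 157 in the XBP1ΔDCIRE1truncDC pools. The lowest pool was XBP1ΔDCIRE1truncDC replicate 3 and the highest was another pool of that genotype, replicate 2, so the full range of *Mcm5* lay within 1 group. The sliding clamp *Pcna* was at 87.4, 110.3, 98.1 and 103 CPM in controls, at 91.5, 94.97, 108 and 105 in XBP1ΔDC pools and at 94.6, 111 and 97.3 in XBP1ΔDCIRE1truncDC pools. Its groups overlapped, its means were 99.7 ± 9.63, 99.8 ± 7.88 and 101 ± 8.93 CPM (SD, n = 4, 4 and 3), and it varied less between pools of a genotype than all members but *Cdk2*. The ribonucleotide reductase subunit *Rrm2* was at 143, 176, 184 and 179.5 CPM in the control pools, 149, 140.1, 215 and 208 in the XBP1ΔDC pools and 155, 224 and 148 in the XBP1ΔDCIRE1truncDC pools. Its highest values were those of XBP1ΔDC replicates 3 and 4 and XBP1ΔDCIRE1truncDC replicate 2, its lowest those of XBP1ΔDC replicate 2 and control replicate 1, and the groups overlapped.

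In the G1/S group, the cyclin *Ccne1*, which activates CDK2 at the start of S phase, was at 17.04, 21.5, 16.4 and 18.6 CPM in controls, at 20.2, 15.9, 25.6 and 19.6 in XBP1ΔDC pools and at 17.6, 26.2 and 16.6 in XBP1ΔDCIRE1truncDC pools. The highest pool of each mutant genotype lay above all controls and the lowest below or near them. *E2f1*, a transcription factor of S phase genes, was at 53.2, 65.7, 52.7 and 60.9 CPM in the control pools, 41.8, 46.4, 53.4 and 45.5 in the XBP1ΔDC pools and 50.04, 58.6 and 47.7 in the XBP1ΔDCIRE1truncDC pools. Of its XBP1ΔDC pools 3 lay below every control pool, while replicate 3 lay above control replicates 1 and 3, so the groups overlapped.

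Among the mitosis genes, the mitotic kinase *Cdk1* was at 53.6, 74.7, 69.6 and 100.4 CPM in the control pools, 67.9, 64.9, 90.03 and 92.2 in the XBP1ΔDC pools and 84.99, 109 and 54.5 in the XBP1ΔDCIRE1truncDC pools. Both ends of its range were found again in more than 1 genotype, with control replicate 1 and XBP1ΔDCIRE1truncDC replicate 3 lowest. Its cyclin partner *Ccnb1* was at 28.7, 49.7, 43.995 and 54.6 CPM in controls, at 35.1, 31.96, 53.4 and 45.6 in XBP1ΔDC pools and at 53.6, 57.3 and 29.8 in XBP1ΔDCIRE1truncDC pools. The spindle checkpoint kinase *Bub1* was at 22.6, 40.8, 35.8 and 42.05 CPM in the control pools, 32.8, 34.2, 47.8 and 42.3 in the XBP1ΔDC pools and 44.3, 50.5 and 25.2 in the XBP1ΔDCIRE1truncDC pools. For both genes the same pair of pools was lowest and XBP1ΔDCIRE1truncDC replicate 2 was highest, and the groups overlapped.

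*Birc5*, the survivin subunit of the chromosomal passenger complex, was at 55.5, 91.2, 78.04 and 92.4 CPM in controls, at 70.2, 65.9, 88.04 and 80.2 in XBP1ΔDC pools and at 87.2, 92.9 and 55.9 in XBP1ΔDCIRE1truncDC pools. *Cdc20*, the activator of the anaphase-promoting complex, was at 36.7, 59.9, 62.8 and 62.8 CPM in the control pools, 41.8, 42.5, 62.2 and 54.3 in the XBP1ΔDC pools and 55.8, 60.4 and 37.4 in the XBP1ΔDCIRE1truncDC pools. Control replicate 1 was the lowest pool for both, with XBP1ΔDCIRE1truncDC replicate 3 close above it, and the groups overlapped. *Top2a*, the topoisomerase that separates the copied DNA strands, was at 119, 194, 176 and 220.2 CPM in controls, at 130.5, 168, 193 and 222 in XBP1ΔDC pools and at 185, 243 and 165 in XBP1ΔDCIRE1truncDC pools. It was highest in XBP1ΔDCIRE1truncDC replicate 2 and lowest in control replicate 1, and its groups overlapped.

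*Mki67*, which encodes the Ki-67 protein that coats mitotic chromosomes and is widely used as a proliferation marker, was at 98.8, 144, 143 and 107 CPM in the control pools, 107, 120.2, 153 and 201 in the XBP1ΔDC pools and 112, 18.03 and 50.03 in the XBP1ΔDCIRE1truncDC pools. XBP1ΔDCIRE1truncDC replicates 2 and 3 lay below all 8 pools of the other genotypes, whereas replicate 1 lay within them, so its groups overlapped as well.

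**Figure D2:**
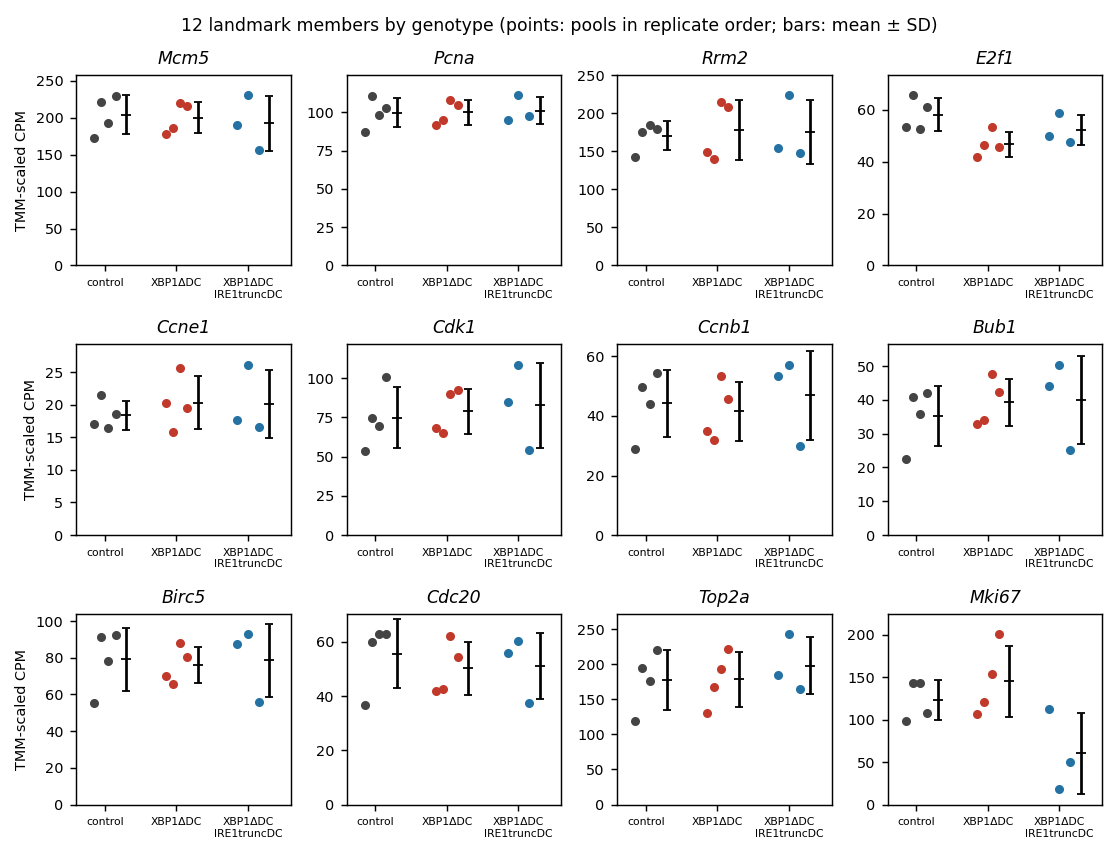
TMM-scaled CPM (y axes, from 0) of 12 landmark members by genotype, with a point for each pool in replicate order and the mean ± SD as a bar to the right (n = 4, 4 and 3). The points of the 3 genotypes overlap for every gene. For *Mki67*, 2 of the 3 XBP1ΔDCIRE1truncDC pools lie below all others, at 18.0 and 50.03 CPM.

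The first comparison asked whether loss of XBP1 in CD11c+ cells changed the cell cycle genes of tumor cDC1s. Between XBP1ΔDC and control pools, 0 of 49 members were called (edgeR, Benjamini-Hochberg adjusted p under 0.05 and fold change above 1.5), beside 0.493% of all genes tested. DESeq2 and limma-voom also called 0, and no share over all genes was taken for these tools, here or in the comparisons below. Their log2 fold changes had a median of -0.03, beside 0.005 over all genes, with 29 members lower and 20 higher. An unadjusted p under 0.05 was reached by 2 of 49 members (4.08%), beside 7.62% of all genes. No member had XBP1ΔDC pools that did not overlap the controls, beside 5.31% of all genes. The 95% interval of the log2 fold change lay within a 1.5-fold difference either way for 38 of 49 members and within a 2-fold difference for 47. For *Pcna* that interval was -0.20 to 0.20, for *Mcm5* -0.30 to 0.25, for *Top2a* -0.41 to 0.43 and for *Cdk1* -0.39 to 0.55.

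By role, 8 of 10 licensing and helicase genes had lower fitted values and 2 had higher ones, with a median log2 fold change of -0.04. The 7 genes of the fork, of nucleotide supply and of chromatin ranged from -0.09 for *Uhrf1*, which couples replication to DNA methylation, to 0.06 for *Rrm2*. The 4 G1/S genes had a median of -0.02, the 8 G2/M cyclins, kinases and phosphatases -0.06, the 6 spindle and cytokinesis genes 0.03, the 9 centromere, passenger complex and checkpoint genes -0.06, the 3 mitotic exit genes -0.06 and the pair *Top2a* and *Mki67* 0.12. The SEs of single members were 0.0916 to 0.3903.

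The 5 members with the smallest p in XBP1ΔDC were *E2f1*, *Ttk*, *Cdc25b*, *Cenpf* and *Cdc45*. *E2f1* had a log2 fold change of -0.31 (SE 0.109), with an unadjusted p of 0.0131 and an adjusted p of 0.416 (edgeR). *Ttk* was at 6.02, 6.59, 8.17 and 10.5 CPM in the control pools, 10.1, 7.91, 19.3 and 11.02 in the XBP1ΔDC pools and 10.5, 10.5 and 9.21 in the XBP1ΔDCIRE1truncDC pools. Its XBP1ΔDC replicate 3 was the highest of all pools, and the other 3 lay among or just above the controls. The log2 fold change of *Ttk* was 0.63 (SE 0.264) with an adjusted p of 0.603, and it was 0.31 without XBP1ΔDC replicate 3. The phosphatase *Cdc25b*, which starts entry into mitosis through CDK1, was at 20.7, 33.2, 20.7 and 20.7 CPM in controls, at 13.99, 16.9, 23.1 and 19.2 in XBP1ΔDC pools and at 21.6, 18.1 and 9.69 in XBP1ΔDCIRE1truncDC pools. Control replicate 2 stood above all other pools, and the other 3 controls lay among the XBP1ΔDC values. The log2 fold change of *Cdc25b* was -0.38, between -0.18 without control replicate 2 and -0.51 without XBP1ΔDC replicate 3. *Cenpf* was at 16.997, 30.5, 20.9 and 34.9 CPM in the control pools, 11.7, 15.9, 25.95 and 30.3 in the XBP1ΔDC pools and 23.3, 16.6 and 13.1 in the XBP1ΔDCIRE1truncDC pools. *Cdc45*, a part of the active replication helicase, was at 36.6, 49.5, 52.7 and 45.8 CPM in controls, at 40.1, 26.7, 49.6 and 46.04 in XBP1ΔDC pools and at 38.5, 52.4 and 34.5 in XBP1ΔDCIRE1truncDC pools. For both genes the groups overlapped, and their log2 fold changes were -0.30 (SE 0.305) and -0.18 (SE 0.191), with adjusted p of 0.944 for each (edgeR). With single pools left out, that of *Cenpf* ranged from -0.10 (without XBP1ΔDC replicate 1) to -0.53 (without replicate 4) and that of *Cdc45* from -0.03 (without XBP1ΔDC replicate 2) to -0.29 (without replicate 3).

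The second comparison added the loss of the IRE1 RNase to that of XBP1, and it shares its control pools with the first. Between XBP1ΔDCIRE1truncDC and control pools, 0 of 49 members were called by edgeR, beside 0.21% of all genes, and 0 by DESeq2 and limma-voom. Their median log2 fold change was 0.03, beside -0.003 over all genes, with 21 members lower and 28 higher. Only *Mki67* had an unadjusted p under 0.05, 1 of 49 members (2.04%) beside 11.2% of all genes. No member's pools were apart from all controls, beside 10.1% of all genes. The 95% interval lay within a 1.5-fold difference for 32 of 49 members and within a 2-fold difference for 46. It was -0.19 to 0.23 for *Pcna*, -0.38 to 0.21 for *Mcm5*, -0.30 to 0.61 for *Top2a* and -0.36 to 0.66 for *Cdk1*.

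By role, the licensing and helicase genes had a median log2 fold change of -0.02, the fork, nucleotide supply and chromatin genes 0.02, the G1/S genes 0.03, the G2/M cyclins, kinases and phosphatases 0.08, the spindle and cytokinesis genes 0.07, the centromere, passenger complex and checkpoint genes -0.01, the mitotic exit genes 0.04 and the pair *Top2a* and *Mki67* -0.44. The 5 members with the smallest p were *Mki67*, *Cdc25b*, *Aurka*, *Cenpf* and *E2f1*. *Mki67* had a log2 fold change of -1.03 (SE 0.435), a 95% interval of -1.97 to -0.09 and an adjusted p of 0.389 (edgeR). *Aurka*, the Aurora A kinase of the spindle poles, was at 31.6, 50.98, 42.2 and 54.5 CPM in the control pools, 42.7, 43.6, 54.4 and 57.99 in the XBP1ΔDC pools and 66.8, 63.96 and 42.3 in the XBP1ΔDCIRE1truncDC pools. XBP1ΔDCIRE1truncDC replicates 1 and 2 were the highest of all pools, and replicate 3 lay among the controls. The log2 fold changes of *Aurka*, *Cdc25b*, *Cenpf* and *E2f1* were 0.36 (SE 0.199), -0.53 (SE 0.269), -0.55 (SE 0.334) and -0.16 (SE 0.118), with adjusted p from 0.496 to 0.698 (edgeR). With single pools left out, they ranged from 0.24 (without control replicate 1) to 0.55 (without XBP1ΔDCIRE1truncDC replicate 3) for *Aurka*, from -0.26 (without XBP1ΔDCIRE1truncDC replicate 3) to -0.78 (without replicate 1) for *Cdc25b*, from -0.37 (without control replicate 4 or XBP1ΔDCIRE1truncDC replicate 3) to -0.80 (without XBP1ΔDCIRE1truncDC replicate 1) for *Cenpf* and from -0.09 (without control replicate 2) to -0.25 (without XBP1ΔDCIRE1truncDC replicate 2) for *E2f1*.

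Set directly against XBP1ΔDC pools, XBP1ΔDCIRE1truncDC pools gave no call among the members. By edgeR 0 of 49 were called, beside 0.0731% of all genes, and DESeq2 and limma-voom called 0. The median log2 fold change was 0.04, beside 0.001 over all genes, with 18 members lower and 31 higher. An unadjusted p under 0.05 was reached by 1 of 49 members, *Mki67*, beside 5.29% of all genes, and no member's pools did not overlap, beside 6.07% of all genes. For *Mki67* the log2 fold change was -1.27 (SE 0.438), with an adjusted p of 0.737 (edgeR). The next members were *E2f1* at 0.16 (SE 0.117), *Tyms* at 0.18 (SE 0.154), *Aurka* at 0.22 (SE 0.199) and *Gins2* at -0.17 (SE 0.169), with adjusted p from 0.967 to 0.976 (edgeR). With single pools left out, those of *E2f1*, *Tyms* and *Gins2* were 0.06, 0.02 and -0.41 without XBP1ΔDCIRE1truncDC replicate 2 and 0.22, 0.29 and -0.06 without XBP1ΔDC replicate 3, and that of *Aurka* was 0.10 without XBP1ΔDCIRE1truncDC replicate 1 and 0.40 without replicate 3. *Tyms*, the thymidylate synthase that supplies dTTP, was at 39.1, 46.2, 55.03 and 50.3 CPM in controls, at 42.4, 39.005, 55.4 and 43.98 in XBP1ΔDC pools and at 47.97, 61.1 and 44.1 in XBP1ΔDCIRE1truncDC pools. *Gins2*, a part of the replication helicase, was at 25.9, 23.9, 25.05 and 24.5 CPM in the control pools, 24.2, 23.9, 33.7 and 27.2 in the XBP1ΔDC pools and 20.4, 31.5 and 20.6 in the XBP1ΔDCIRE1truncDC pools. The groups of both overlapped. Intervals lay within a 1.5-fold difference for 33 of 49 members.

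**Figure D3:**
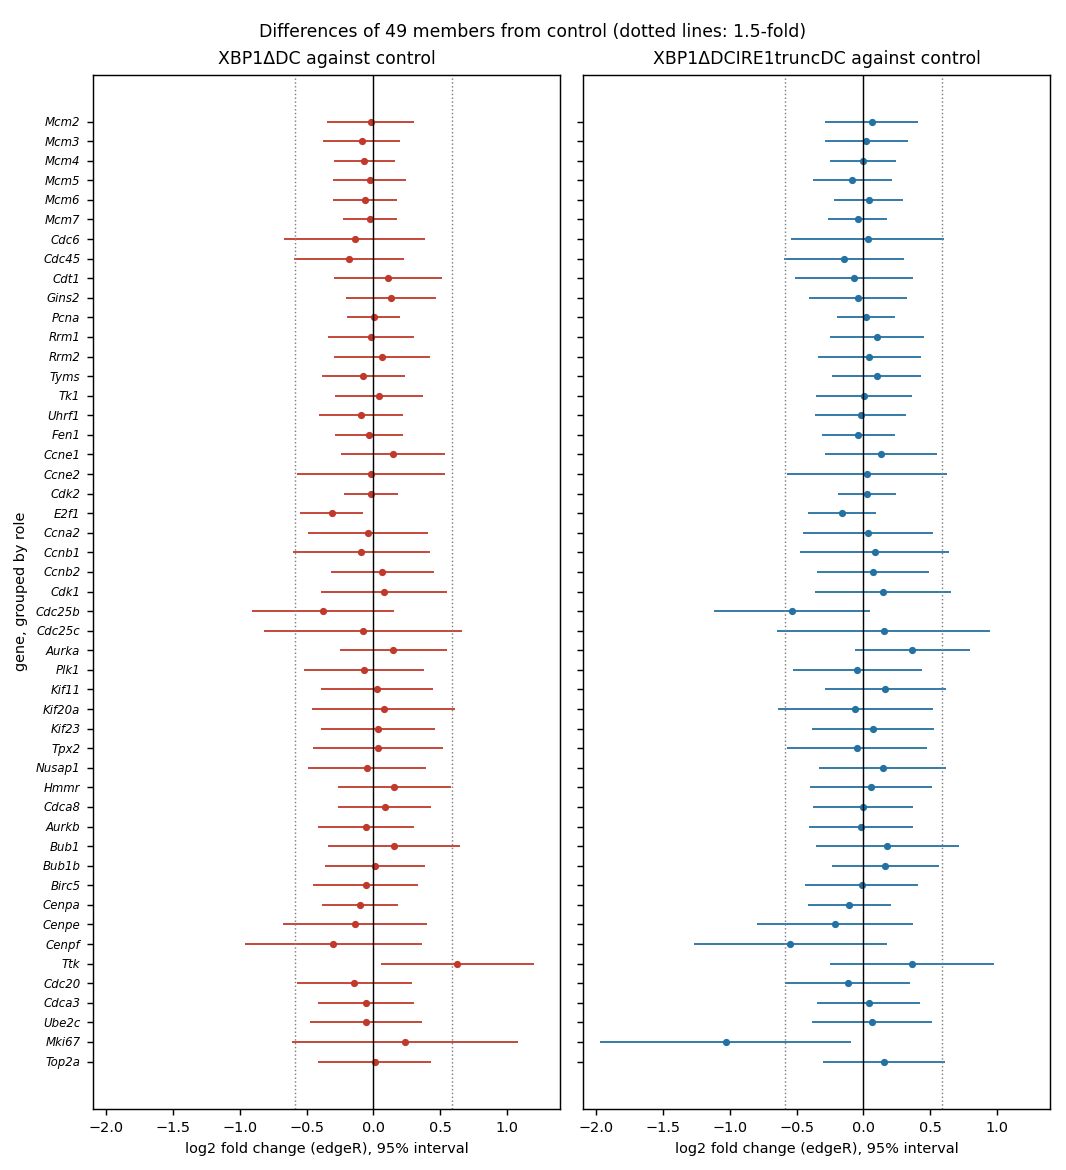
Log2 fold change (x axes, edgeR) of each of the 49 members against control in XBP1ΔDC pools (left, red) and XBP1ΔDCIRE1truncDC pools (right, blue), with its 95% interval as a line and a 1.5-fold difference as dotted lines. Most points lie near 0, and *Mki67* in XBP1ΔDCIRE1truncDC is the farthest from it, at -1.03. The intervals that miss 0 belong to *E2f1* and *Ttk* on the left and *Mki67* on the right, and none of these passed the adjusted threshold.

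Although the genotypes overlapped in the members, pools of the same genotype were spread apart, and in nearly all members at once. For each pool a member score was taken as the mean over the 49 genes of log2 CPM minus the gene's mean over the 11 pools. It was -0.36, 0.16, 0.03 and 0.21 in control pools, -0.20, -0.21, 0.26 and 0.15 in XBP1ΔDC pools and 0.07, 0.23 and -0.34 in XBP1ΔDCIRE1truncDC pools. The spread between pools of a genotype was 0.26 (pooled SD), while the group means differed by -0.01 (XBP1ΔDC minus control) and -0.02 (XBP1ΔDCIRE1truncDC minus control). In control replicate 1, 44 of 49 members were below their own mean and 24 had their lowest value of all pools. In XBP1ΔDCIRE1truncDC replicate 3, 48 of 49 were below it. XBP1ΔDC replicate 3 had all 49 above their mean, and XBP1ΔDCIRE1truncDC replicate 2 held the highest value of 24 members. The median of all genes tested was within 0.0144 of 0 in every pool on the same scale, where TMM scaling holds it near 0 by design.

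As a description with no test, deviations from the genotype mean were correlated between members over the 11 pools. The median r over the 1176 pairs of members was 0.78, and 1146 of the pairs were positive, beside a median of -0.001 over all pairs of genes tested. The points of each pair share their libraries and their scaling. Within the replication and G1/S genes the median r was 0.77, and within the mitosis genes 0.85. Those whose deviations were most like the rest were *Cdt1* with a median r of 0.89, *Aurkb* with 0.89 and *Mcm5* with 0.88. *Cdk2*, at 0.17, and *Mki67*, at -0.02, were least like it.

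The size of these swings differed by role, which is given as a description with no test. The SD of log2 CPM between pools of a genotype had a median of 0.23 over replication and G1/S genes and 0.35 over mitosis genes, beside 0.22 over all genes. Of the mitosis genes 27 of 28 were above the median of all genes, and of the replication and G1/S genes 12 of 21. It was smallest for *Cdk2*, *Pcna* and *Mcm7*, at 0.125, 0.128 and 0.135, and largest for *Mki67*, *Cdc25c* and *Cenpf*, at 0.725, 0.5697 and 0.526. The highest pool exceeded the lowest 1.27-fold for *Pcna* and 1.47-fold for *Mcm5*, against 2.04-fold for *Top2a* and 2.24-fold for *Bub1*. In sums of CPM, mitosis genes stood at 0.661, 0.812, 0.793 and 0.868 times the replication and G1/S genes in control pools, 0.757, 0.772, 0.833 and 0.8904 times in XBP1ΔDC pools and 0.917, 0.753 and 0.6797 times in XBP1ΔDCIRE1truncDC pools. This ratio too was low in control replicate 1 and XBP1ΔDCIRE1truncDC replicate 3, and its groups overlapped.

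*Mki67* did not follow the other members in XBP1ΔDCIRE1truncDC replicates 2 and 3. In replicate 2, where *Top2a* reached its highest level of 243 CPM, *Mki67* was at 18.03 CPM from 387 counts, which put it -2.45 log2 units from its own mean. Its deviation there was the 33rd lowest of 10951 genes, and that in replicate 3 the 198th lowest. The ratio of *Mki67* to *Top2a* CPM was 0.8292, 0.738, 0.813 and 0.487 in control pools, 0.818, 0.715, 0.794 and 0.903 in XBP1ΔDC pools and 0.608, 0.0742 and 0.303 in XBP1ΔDCIRE1truncDC pools. Control replicate 4, without Cre and the only IRE1 fl/fl control, lay at 0.487 below the other controls and all XBP1ΔDC pools. The lowest ratios were thus those of the IRE1 fl/fl pools with and without Cre, and the part of the floxed allele was not tested. *Mki67* itself was at 107 CPM in control replicate 4 and 112 CPM in XBP1ΔDCIRE1truncDC replicate 1, both within the range of the other controls. In control replicate 4 *Top2a*, at 220.2 CPM, was the highest of the controls. The log2 fold change of *Mki67* against control was -0.60 without XBP1ΔDCIRE1truncDC replicate 2 and -1.85 without replicate 1, and against XBP1ΔDC it was -0.84 and -2.09. *Mki67* (chr7:135689784-135716361, minus strand, GRCm38) has an annotated transcript of 10061 bases, the second longest of the members after *Cenpf* with 11130. The 146 well expressed genes with transcripts over 10000 bases had a median deviation of -0.09 in replicate 2 and 0.03 in replicate 3, beside 0.02 and -0.02 for 2766 genes with transcripts of over 2000 and up to 4000 bases. *Cenpf* deviated by -0.31 and -0.65 in these pools, and *Cenpe*, with a transcript of 7910 bases, by 0.36 and -0.75. Over 11 pools, the median of the 146 genes with long transcripts ranged from -0.12 in XBP1ΔDC replicate 1 to 0.12 in XBP1ΔDC replicate 4. *Mki67* deviated by 0.11 and 1.02 in those XBP1ΔDC pools. The part of transcript length in the *Mki67* levels was not tested. Counts per gene do not show where along a transcript the reads lie, so coverage along the *Mki67* transcript was not analysed here.

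**Figure D4:**
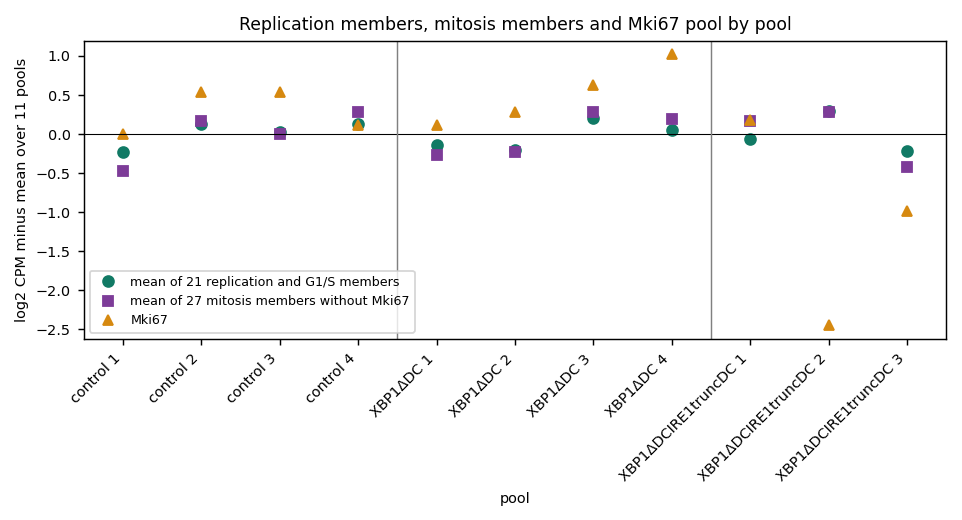
Log2 CPM minus the mean over 11 pools (y axis) in each pool (x axis) for the mean of the 21 replication and G1/S members (circles), the mean of 27 mitosis members without *Mki67* (squares) and *Mki67* alone (triangles). Circles and squares lie on the same side of 0 in most pools, the squares mostly farther from it. In XBP1ΔDCIRE1truncDC replicate 1 the circle lies below 0, at -0.06, and the square above 0. *Mki67* lies far below both in XBP1ΔDCIRE1truncDC replicates 2 and 3, at -2.45 and -0.98.

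Wider lists of the same pathway gave no calls either. Of 40 further S phase genes, 40 were tested and 0 called in each of the 3 comparisons by edgeR, with unadjusted p under 0.05 for 1, 1 and 2 of them. Of 41 further mitosis genes, 41 were tested and 0 called, with unadjusted p under 0.05 for 1, 0 and 0. Their median log2 fold changes lay between -0.04 and 0.03. Among 16 cell cycle transcription factors 0 were called, with unadjusted p under 0.05 for 0, 1 and 0 and medians of -0.008, -0.03 and -0.04. Over all genes tested, 0.493%, 0.21% and 0.0731% were called in the 3 comparisons, so 0 calls in lists this short is near those shares. An unadjusted p under 0.05 was reached by 7.62%, 11.2% and 5.29% of all genes.

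The regulators of G1, upstream of the members, were present too. Of 15 G1 cyclins, CDK inhibitors and pocket proteins 14 were tested. Beside the shares over all genes just given, 0 of these 14 were called by edgeR, with unadjusted p under 0.05 for 0, 1 and 1. Their median log2 fold changes were 0.03, 0.16 and 0.16, with 9, 10 and 11 of the 14 higher, beside 0.005, -0.003 and 0.001 over all genes. The D cyclins, which link growth signals to the cell cycle, were at 376 to 500.1 CPM for *Ccnd3*, 90.1 to 127 CPM for *Ccnd1* and 97.04 to 443 CPM for *Ccnd2*. *Ccnd2* was at 168, 97.04, 214 and 135 CPM in the control pools, 205, 144, 268 and 192 in the XBP1ΔDC pools and 146, 443 and 146 in the XBP1ΔDCIRE1truncDC pools. XBP1ΔDCIRE1truncDC replicate 2 held by far its highest value. *Cdkn1a*, which encodes the CDK inhibitor p21, was at 216, 134, 212 and 157 CPM in controls, at 222, 187, 226 and 219 in XBP1ΔDC pools and at 218, 326 and 265 in XBP1ΔDCIRE1truncDC pools. Its XBP1ΔDCIRE1truncDC pools all lay above the controls, with a log2 fold change of 0.58 (SE 0.167) and an adjusted p of 0.202 (edgeR), where 10.1% of all genes had pools that did not overlap. *Cdkn1b*, for the inhibitor p27, was at 32.98 to 49.9 CPM in control, 29.5 to 41.7 in XBP1ΔDC and 26.9 to 44.1 in XBP1ΔDCIRE1truncDC pools. The p18 gene *Cdkn2c* was at 35.4 to 46.7, 31.1 to 42.8 and 36.2 to 50.3 CPM.

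Markers of mature dendritic cells were high in some of the pools in which the members were low. Maturation switches on *Ccr7*, the receptor that guides dendritic cells to lymph nodes, and *Fscn1*, which bundles actin in their dendrites. The summed level of 11 such markers was 4109.7, 2465, 4886 and 2939 CPM in control pools, 6600.4, 4859, 3231 and 4667 in XBP1ΔDC pools and 5748, 4532 and 9003 in XBP1ΔDCIRE1truncDC pools. In both mutant genotypes the pool with the highest marker sum had the lowest member sum (XBP1ΔDC replicate 1, with 3470 CPM of members, and XBP1ΔDCIRE1truncDC replicate 3, with 3257) and the pool with the lowest marker sum had the highest member sum (XBP1ΔDC replicate 3 and XBP1ΔDCIRE1truncDC replicate 2). In controls, replicate 2 was lowest in markers and second highest in members, but replicate 1, the lowest in members, had fewer markers than replicate 3. Of the 11 markers 10 had an unadjusted p under 0.05 and a higher level in XBP1ΔDCIRE1truncDC than in control, beside 11.2% of all genes in either direction, and 0 were called by edgeR. None of the 11 was at 0 in any pool. Their part in the member levels was not tested.

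**Figure D5:**
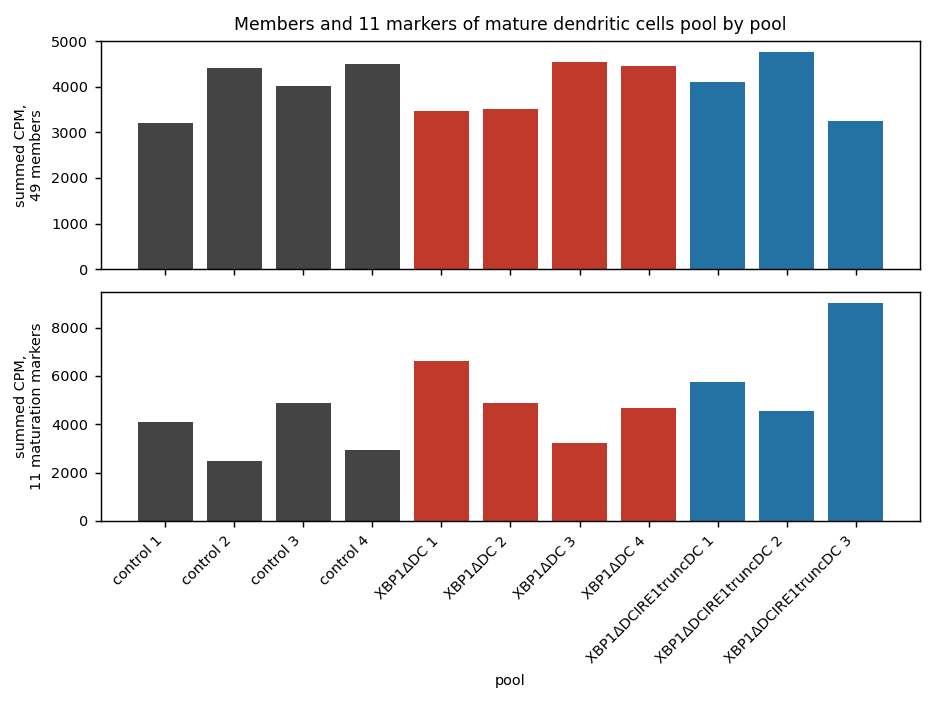
Summed CPM of the 49 members (upper bars) and of 11 markers of mature dendritic cells (lower bars) in each pool, with control in grey, XBP1ΔDC in red and XBP1ΔDCIRE1truncDC in blue and both axes from 0. The marker sum is highest, at 9003 CPM, in XBP1ΔDCIRE1truncDC replicate 3, whose member sum of 3257 CPM is the lowest of its genotype.

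The genes of the members lie on many chromosomes. On chromosome 11, which also carries *Ern1*, the gene of IRE1 that is floxed in XBP1ΔDCIRE1truncDC pools and in control replicate 4, are *Top2a*, *Aurkb*, *Birc5*, *Hmmr*, *Cdc6* and *Tk1*. Their log2 fold changes in XBP1ΔDCIRE1truncDC against control were 0.16, -0.02, -0.01, 0.06, 0.03 and 0.007, in that order. None was called by edgeR, beside 0.21% of all genes tested, so no call among so few members is near that share.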

How the data were processed

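RNA of 11 pools of sorted tumor cDC1s was made into single-end libraries with SMART-seq v4 amplification. Per the labels and methods, the authors trimmed reads with Trimmomatic 0.39, aligned them to mm10 with STAR 2.7.3a and deposited HTSeqCount counts per gene. The versions are from the submitters' processing notes, and the annotation is not given in the sources used here. The method keeps no strand, so reads of overlapping genes cannot be told apart. The authors also deposited log2 CPM normalized with limma 3.42.2, which was equal to a voom and TMM transformation of the counts recomputed here (largest difference 4.97e-14). Pools were grouped by the genotype in their labels. They are separate pools of mice, and pools of a genotype differed by more than counting error (chi-square per degree of freedom 19.9 to 61.5).

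Counts were analysed with edgeR 4.0.16 in R 4.3.3. The filter asked for more than 1 CPM in 4 or more pools, counts were TMM-scaled, and a quasi-likelihood model with 3 genotypes was fitted to all 11 pools. DEGs had a Benjamini-Hochberg adjusted p under 0.05 over all 10951 genes and a fold change above 1.5. The SE is the log2 fold change divided by the square root of F, and 95% intervals used 12.7 degrees of freedom. Log2 CPM used a prior count of 2. Positions and exon lengths are from GENCODE vM21 (GRCm38) and promoters from RefSeq. Alternatives used DESeq2 1.42.0, limma 3.58.1, other scalings, filters and pool sets, a replicate block and each pool left out. The fits were tested on simulated data. Figures were drawn with matplotlib 3.10.9.

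The members, the wider lists and the marker lists were chosen with earlier results of these data known. Genes named are 12 landmarks with their value in every pool, the 5 members with the smallest unadjusted p in each comparison, members at the extremes of level or spread, 6 G1 regulators and defining markers. The chromosome 11 members, the promoter examples, *Uhrf1*, *Cenpe*, *Itgae*, *Naaa*, *Cd24a*, *Zbtb46*, *Cdca8* and *Mcm4* were named after their values were seen.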

Additional observations from a re-analysis of the deposited data

Results flagged for a closer look

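In groups of 4 pools, a pool was singled out where its gap to the nearest other pool exceeded Dixon's 95% critical share of the group's range. Of 106 groups tested, 4 had such a pool, and chance alone flags about 1 in 20 groups, or 5.3 of these. Groups of 3 pools, among them the XBP1ΔDCIRE1truncDC pools with the low *Mki67* values, were not tested. *Cdc20* was low in control replicate 1, at 36.7 CPM. *Cdca8*, of the chromosomal passenger complex, was low in the same pool, at 54.1 CPM, as was *Mcm4* of the replication helicase, at 134.9 CPM. *Cdc25b* was high in control replicate 2, at 33.2 CPM. Control replicate 1 is the pool with the lowest member score.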

How the results depend on the processing

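No member was called in any of the 3 comparisons under the 10 alternatives in test, scaling, filter, pools, replicate block and call rule, or with any of the 11 pools left out. For most of these settings no share over all genes was taken. In the main fit 0.493%, 0.21% and 0.0731% of all genes were called, so 0 of 49 members is near those shares. Other settings of the member score on the log2 scale moved its group differences by less than the spread between replicates. With z-scores, which have other units, the differences were -0.07, -0.003 and 0.07 in the order of the comparisons. They were not set against a spread in those units. The signs of these small differences changed between settings. Leaving out *Mki67* from the members, an alternative chosen after seeing the data, changed no result beyond the spread between replicates (SD of the member score 0.26). The median log2 fold change of the members ranged from -0.12 (without control replicate 1) to 0.04 for XBP1ΔDC against control, from -0.14 (without XBP1ΔDCIRE1truncDC replicate 2) to 0.16 (without replicate 3) for XBP1ΔDCIRE1truncDC against control, and from -0.11 to 0.18 (without the same replicates) for XBP1ΔDCIRE1truncDC against XBP1ΔDC. Its sign therefore depends on single pools. Same-numbered pools did not deviate together (r from -0.26 to 0.13 over 10 pairs). Such correlations cannot show whether these pools were prepared together, which the pool labels do not state. In a fit with a replicate block, the medians were -0.02, 0.08 and 0.09, and 0 members were called. The 95% intervals had median distances from estimate to bound of 0.40 to 0.43 log2 units.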
